A study of Drosophila melanogaster with 24 samples.

Results

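The comparison described here is between the heads of male flies (Drosophila melanogaster) that had been through 3 courtship training sessions and those of males that had been through 1 session. In this assay, known as male courtship suppression, rejection by a mated female lowers a male's later courtship. The 6 libraries labelled as trained and 3X and the 6 labelled as trained and 1X were taken, 12 of the 24 in the series. The other 12 are mock flies, 6 of 1X and 6 of 3X, that were handled on the same schedules without a female, and they are used only to set the same difference in schedule beside that of the trained flies. By the study's methods all males had been housed singly for 5 days. A session lasted 2 h, the 3 sessions were spaced by 30 min, and single heads were collected 1 h after the last session. The strain of the males used for sequencing is not given in the sources used here. Training on the 3X schedule spans 7 h and on the 1X schedule 2 h, and the hour at which it began is not given. The 3X males were therefore collected 5 h later relative to the start of training, and the number of sessions and the hour of collection cannot be told apart in this comparison. The same holds for the mock flies.

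Fly heads hold the brain, the compound eyes, fat body and cuticle, and many of their transcripts follow the time of day. In the molecular clock, the proteins CLK and CYC switch on period (per), timeless (tim), vrille (vri), Pdp1 and clockwork orange (cwo). PER and TIM then enter the nucleus and shut off their own transcription, VRI represses Clk and PDP1 activates it, and cryptochrome (cry) resets the cycle by light. Lists of neuronal activity, memory, immune and metabolic genes were set beside the clock genes.

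The trained libraries held 18929289 to 39464281 reads, with a median of 31340372 in 1X and 35782268 in 3X trained flies, and 18.9% to 22.2% of the genes in the table were at 0. Head markers (elav, nSyb, brp, repo, ninaE, trp, norpA and inaD) were above 0 in every trained fly and summed to 12395 to 15577 RPKM (reads scaled to gene length and library size). Testis markers summed to 27.4 to 31.3 RPKM in trained flies, with 4 of 17 genes at 0 in each of them, and accessory gland markers to 7.69 to 12.6 RPKM. Hemocyte markers ran from 141 to 221 RPKM in 1X and from 146 to 210 RPKM in 3X trained flies, and 1 of the 8 genes, NimC1, was called higher, against 3.05% of all genes tested. The gut markers summed to 54.6 to 324 RPKM in 1X and 44.0 to 88.2 RPKM in 3X trained flies. The yolk and eggshell markers summed to 9.24 to 14.6 RPKM in 1X and 9.99 to 53.7 RPKM in 3X trained flies. The part of these differences in the results was not tested. In RNA from a whole head, fewer cells of a type and less RNA per cell cannot be told apart. Nothing in the labels says more about the origin of the flies than that they are separate samples, and p-values measure the spread between these samples.

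One library stood apart. The values of 1X trained replicate 1 correlated with those of the other flies of its group with a mean Pearson r across genes of 0.970, against 0.983 to 0.987 for the other 11 trained flies. The first principal component of the 12 flies took 23.6% of the variance and was nearly this fly alone, with a weight of 0.91. This fly had the highest gut marker sum (324 RPKM) and the highest sum of antimicrobial peptide transcripts (378 RPKM, against 23.5 to 141 RPKM in the other trained flies). The second component, with 18.8% of the variance, put all 6 1X flies on one side and all 6 3X flies on the other. Among the mock flies, 3X mock replicate 6 had a testis marker sum of 144 RPKM, against 25.9 to 35.6 RPKM in the other 11, and 13.9% of genes at 0, against 18.4% to 20.9%.

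Of 10261 genes tested, 569 differed between 3X and 1X trained flies at a limma adjusted p below 0.05, which is 5.55% of the genes. The 313 genes higher after 3X were 3.05% and the 256 lower genes 2.49% of those tested. An unadjusted p below 0.05 was reached by 2277 of the 10261 genes. The differences were mostly small. Their median size was 0.30 on the log2(RPKM + 1) scale, 456 of the 569 were under 0.5, and 29 were at least 1, of which 20 were higher and 9 lower. In 372 of the 569 genes every 3X fly lay outside the range of the 1X flies, and groups did not overlap in 4.36% of all genes tested. Without 1X trained replicate 1 the number of calls was 1038, with 664 higher and 374 lower genes (10.1%, 6.47% and 3.64% of those tested), and 559 of the 569 were among them. With the RPKM values as deposited, 55.0% of the calls were higher. Median-ratio scaling gave 48.9% and quantile normalization 44.1%. The median difference over all genes tested was 0.01.

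**Figure D1:**
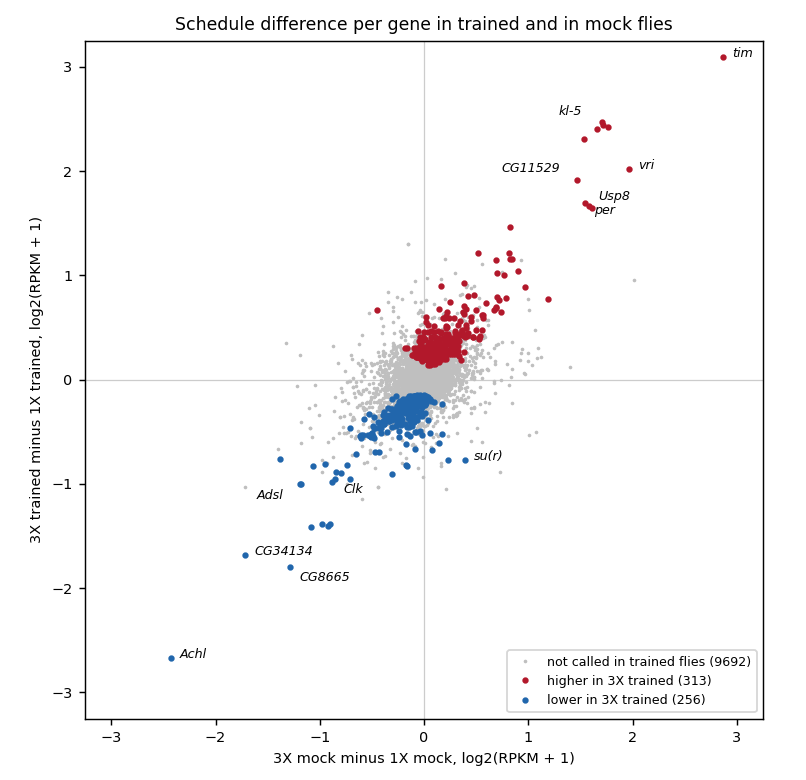
Each point is 1 of the 10261 genes tested, with its mean difference between 3X and 1X mock flies on the x axis and between 3X and 1X trained flies on the y axis, both in log2(RPKM + 1). The 313 higher (red) and 256 lower (blue) genes called in trained flies lie mostly in the upper right and lower left, with tim and Achl at the ends and su(r) on the lower right.

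The changes of smallest p were led by clock genes. Of the 8 core clock genes, 5 were higher (per, tim, vri, Pdp1 and cwo) and 1 lower (Clk) in 3X trained flies. These calls were 75% of the list, against 5.55% of all genes, and cyc and cry did not pass the test. The trained counts were the same without 1X trained replicate 1, with 5 higher and 1 lower. In mock flies 5 were higher and 2 lower, and there cry passed as lower (log2 difference -0.32, limma adjusted p 0.00177). The median over the list was 0.72 in trained and 0.72 in mock flies.

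The transcript of tim (FBgn0014396, chromosome 2L, 3493986 to 3508119 in dm6) had 8.17, 9.82 and 12.4 RPKM as the lowest, median and highest value in 1X trained flies and 74.9, 97.9 and 111 RPKM in 3X trained flies. All 3X flies were far above all 1X flies. Its means of 10.2 ± 1.77 (1X) and 94.3 ± 14.1 RPKM (3X; SD, n = 6 each) differed 9.29-fold. The log2 difference was 3.10 ± 0.12 (SE, limma adjusted p 2.52e-08). In mock flies the same schedules gave 14.6 ± 4.47 and 110 ± 9.85 RPKM.

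The partner of tim, per (FBgn0003068, chromosome X, 2685580 to 2692780), ran from 3.91 through a median of 4.39 to 5.43 RPKM after 1X and from 14.5 through 17.0 to 17.8 RPKM after 3X, so that its groups also lay apart. Its log2 difference was 1.69 ± 0.07 (SE, limma adjusted p 2.69e-08), a 3.73-fold higher mean. The gene overlaps dyw on the other strand, and reads of overlapping genes cannot be told apart in these unstranded libraries. For vri (FBgn0016076, chromosome 2L, 5288944 to 5311223), the repressor of Clk, the lowest, median and highest values were 11.0, 14.0 and 16.5 RPKM after 1X and 47.7, 59.8 and 65.8 RPKM after 3X. Its mean was 4.24-fold higher (2.02 ± 0.12, SE, limma adjusted p 6.11e-07). The activator Pdp1 (FBgn0016694, chromosome 3L, 7811458 to 7867369) rose from 16.2 ± 1.2 to 28.8 ± 1.96 RPKM (SD, n = 6 each), and cwo, a repressor of the same promoters, from 7.28 ± 1.5 to 11.8 ± 1.53 RPKM. In per, vri, Pdp1 and cwo no 3X value reached down to the 1X values.

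Clk (FBgn0023076, chromosome 3L, 7763233 to 7775603) went the other way. Its lowest, median and highest values were 9.67, 11 and 13 RPKM after 1X and 4.23, 4.82 and 7.95 RPKM after 3X. The groups did not overlap, and the mean was 2.07-fold lower (log2 difference -0.95 ± 0.12, SE, limma adjusted p 0.000788). Its partner cyc had 20.8 ± 1.73 RPKM after 1X and 20.8 ± 1.25 RPKM after 3X (SD, n = 6 each, limma adjusted p 0.999). For cry the means were 126 ± 4.92 and 106 ± 13.9 RPKM (SD, n = 6 each, -0.26 ± 0.08, SE, limma adjusted p 0.0802), and the groups overlapped.

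**Figure D2:**
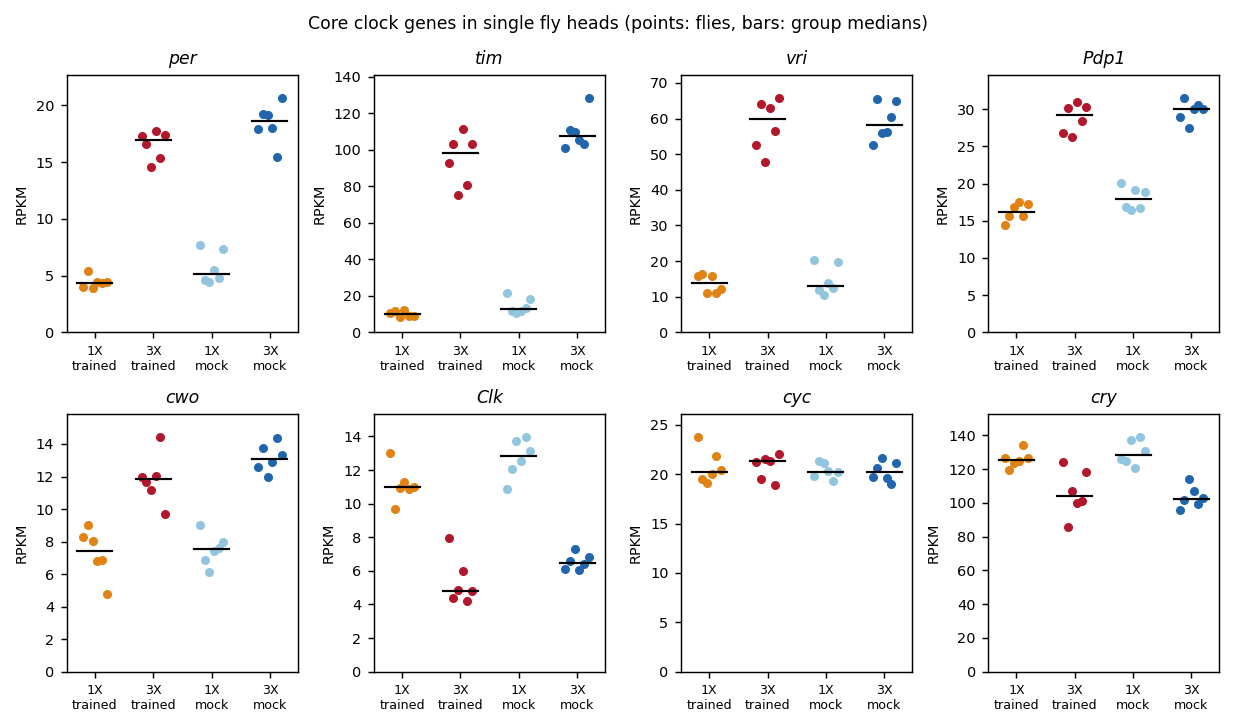
Level of each of the 8 core clock genes in RPKM (y axis, from 0) by group (x axis), with 1 point for each fly and a bar at the median of the 6 flies. The 3X trained flies lie above the 1X trained flies in per, tim, vri, Pdp1 and cwo and below them in Clk, and the mock flies show the same order.

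The clock list's neighbours changed in part. Of 21 tested genes that act on clock proteins, 3 were higher and 1 lower (19.0%, against 5.55% of all genes). Usp8 (FBgn0038862, chromosome 3R, 21134262 to 21138214), a deubiquitinase, had values of 15.3, 20.3 and 27.4 RPKM (lowest, median, highest) after 1X and 63.7, 67.3 and 81.1 RPKM after 3X. It was 3.23-fold higher (1.67 ± 0.12, SE, limma adjusted p 6.95e-06). The F-box gene Fbxl4 and tws, a regulatory subunit of protein phosphatase PP2A, rose by 0.25 and 0.23 on the log2 scale, and wdb, another PP2A subunit, fell by 0.15. Fits that leave out a fly ended the calls of tws and wdb in 7 and in 6 of 12 cases. In mock flies Usp8, Fbxl4 and tws had log2 differences of 1.58, 0.24 and 0.34 and passed. There wdb was at -0.04 and did not pass (limma adjusted p 0.555).

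Of 21 tested clock output genes, 2 were higher and 2 lower (19.0%, against 5.55% of all genes). Values of gol (goliath, a ubiquitin ligase; FBgn0004919, chromosome 2R, 25072627 to 25084347) were 11.7, 15.8 and 18.1 RPKM after 1X and 42.1, 49.5 and 59.5 RPKM after 3X, a 3.26-fold difference (1.65 ± 0.11, SE, limma adjusted p 3.76e-06). Slob, which binds the potassium channel Slowpoke, rose from 37.3 ± 3.04 to 64.8 ± 3.51 RPKM (SD, n = 6 each, limma adjusted p 6.95e-06). The flavin monooxygenase Fmo-2 fell from 136 ± 20 to 70.9 ± 18.4 RPKM (limma adjusted p 0.00754), and the glucuronosyltransferase Ugt35B1 from 127 ± 18.4 to 67.3 ± 4.80 RPKM (limma adjusted p 0.000264). Slob overlaps Myo28B1 on the other strand. The other named higher gene by p was CG2681, at 6.77 ± 0.859 and 15.0 ± 1.47 RPKM. In mock flies 3 genes of the clock output list were higher and 4 lower, against 2.76% higher and 3.78% lower among all genes. There gol, Slob, Fmo-2 and Ugt35B1 had log2 differences of 1.61, 0.78, -0.71 and -0.80 and passed (limma adjusted p 2.35e-05 to 0.011).

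The largest fall was in Achl (achilles, FBgn0033936, chromosome 2R, 14420324 to 14424764). Its lowest, median and highest values were 5.29, 9.21 and 13.4 RPKM in 1X and 0.293, 0.430 and 1.08 RPKM in 3X trained flies, a 17.0-fold lower mean (-2.67 ± 0.19, SE, limma adjusted p 4.98e-06). It also fell in mock flies, from 8.39 ± 1.81 to 0.746 ± 0.385 RPKM. CG34134 (FBgn0083970, chromosome 2L, 8190297 to 8190781) went from a median of 33.4 (29.1 to 36.5) to 9.17 (7.72 to 12.1) RPKM, 3.41-fold lower. In either gene the groups did not overlap.

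Genes at 1 locus on chromosome 3L fell together. The means of Ank2 (ankyrin 2, a cytoskeletal adaptor of axons, 7655389 to 7718395) were 22.5 ± 0.341 and 13.4 ± 0.550 RPKM, those of CG44195 (7658409 to 7695654) 106 ± 2.97 and 56.9 ± 2.79 RPKM, and those of CG32373 (7650548 to 7759123) 721 ± 9.13 and 496 ± 8.36 RPKM (SD, n = 6 each). These 3 genes overlap each other, so their reads may be shared between them and they count as 1 observation. Among the other lower genes with the smallest p, tan (t, chromosome X, 9217655 to 9223257), which frees histamine and dopamine from their beta-alanyl conjugates in the eye and cuticle, fell from 39.3 ± 2.71 to 21.7 ± 1.75 RPKM (-0.83 ± 0.06, SE, limma adjusted p 6.23e-06). Chd64, a calponin-like actin-binding protein, fell from 139 ± 8.60 to 95.7 ± 4.10 RPKM. CG1441 fell from 43.6 ± 4.10 to 22.8 ± 2.90 RPKM in trained flies (limma adjusted p 7.51e-05) and was at 29.4 ± 5.14 and 23.5 ± 4.08 RPKM in mock flies (limma adjusted p 0.159). The difference between these differences did not pass (limma adjusted p 0.0958).

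By size, the remaining higher genes with groups that did not overlap were CG11529 (6.56 ± 2.44 and 26.3 ± 3.90 RPKM, 4.01-fold) and CCY, described below with the genes that share its pattern. The remaining lower genes were CG8665, which encodes a folate enzyme (117 ± 20.7 and 41.3 ± 27.1 RPKM), CG10513 (44.5 ± 10.4 and 15.7 ± 2.23 RPKM), CG12116 (195 ± 58.1 and 72.6 ± 21.6 RPKM) and the cuticle protein gene Cpr72Ec (61.9 ± 26.0 and 21.7 ± 3.34 RPKM). The call of CG8665 (limma adjusted p 0.0291) was lost in 6 of the 12 fits that leave out a fly, with a highest adjusted p of 0.0638. CG12116 overlaps CG33223 on its own strand.

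Genes of the endoplasmic reticulum, where secreted and membrane proteins are folded, were higher in 3X trained flies. The 2 lists on this were written after the values had been seen, so their counts are a description. Of 12 tested folding genes 8 were higher (66.7%, against 3.05% of all genes) and 0 lower. The median was 0.38 in trained and 0.19 in mock flies, where 2 were higher. The number higher in trained flies rose to 9 without 1X trained replicate 1. For calreticulin (Calr, FBgn0005585, chromosome 3R, 9628691 to 9630851), a lectin chaperone, the lowest, median and highest values were 155, 159 and 176 RPKM after 1X and 216, 225 and 247 RPKM after 3X, and the groups lay apart. Its log2 difference was 0.50 ± 0.05 (SE, limma adjusted p 9.19e-05). In mock flies the difference was 0.22 ± 0.07 (limma adjusted p 0.0967), and the test of the difference between the differences gave a limma adjusted p of 0.173.

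Calnexin (Cnx99A) rose from 72.8 ± 5.29 to 103 ± 7.96 RPKM, BiP (Hsc70-3) from 94.3 ± 9.0 to 129 ± 16.3 RPKM, GRP94 (Gp93) from 49.1 ± 5.83 to 74.9 ± 14.9 RPKM and the disulfide isomerase CaBP1 from 21.5 ± 2.35 to 33.3 ± 5.75 RPKM (SD, n = 6 each). The groups did not overlap in these 4 genes. The BiP co-chaperone P58IPK, Manf and Edem1, which sends misfolded proteins to degradation, made up the 8. The calls of P58IPK and Manf were each lost in 4 of the 12 fits that leave out a fly.

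Of 16 tested genes for import into the endoplasmic reticulum and N-glycosylation, 6 were higher (37.5%, against 3.05% of all genes) and 0 lower. All 16 had a positive difference. The median was 0.25 in trained and 0.05 in mock flies, in which none of the 16 passed limma's test (1 at an unadjusted p below 0.05, 0 with voom). Without 1X trained replicate 1 the number was 9. TRAM, which sits beside the import channel, had 9.60, 11.9 and 13.7 RPKM (lowest, median, highest) after 1X and 14.4, 15.7 and 17.5 RPKM after 3X, with no overlap (0.40 ± 0.07, SE, limma adjusted p 0.00804). Its mock means were 12.9 ± 1.1 and 12.6 ± 0.501 RPKM, and the difference between the differences had a limma adjusted p of 0.0552. Tapdelta, of the translocon-associated complex, rose from 62.6 ± 6.31 to 83.5 ± 7.24 RPKM and the signal peptidase subunit Spase22-23 from 28.9 ± 1.24 to 33.8 ± 1.53 RPKM. The channel subunit Sec61alpha, the oligosaccharyltransferase Stt3A and the glucosidase subunit GCS2beta also passed, and lost their calls in 8, 10 and 4 of the 12 fits that leave out a fly.

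The lists of unfolded protein sensors and of the cytosolic chaperonin were likewise written after the values had been seen. Among 5 sensors and effectors of the unfolded protein response, the sensor kinase Ire1 fell from 24.8 ± 1.71 to 19.8 ± 1.36 RPKM (-0.31 ± 0.06, SE, limma adjusted p 0.00766). Xbp1, PEK, Atf6 and crc did not pass (limma adjusted p 0.532 to 0.730), but Xbp1 passed, as higher, without 1X trained replicate 1 (limma adjusted p 0.0445). The cytosolic chaperone Hsp83 (HSP90) was the third of 3 higher genes among 23 tested heat shock genes, with Hsc70-3 and Gp93. It rose from 359 ± 34.8 to 524 ± 108 RPKM (limma adjusted p 0.0271), and its call was lost after quantile normalization and in 4 of the 12 fits that leave out a fly. The 7 tested subunits of the cytosolic chaperonin had a median of 0.27 and none passed limma's test (3 at an unadjusted p below 0.05, 0 with voom). Without 1X trained replicate 1, 6 of the 7 passed. In mock flies their median was 0.16 and 4 of the 7 passed, as higher (3 with voom).

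Enzymes of purine synthesis, which build inosine monophosphate from ribose phosphate, were lower. This list, too, was written after the values had been seen. Of its 8 tested genes 6 were lower (75%, against 2.49% of all genes) and 0 higher. The median was -0.67 in trained and -0.60 in mock flies. In mock flies 6 were lower as well, but not the same 6. There Pfas did not pass (-0.08, limma adjusted p 0.637) and Prat2 passed as lower (-0.59, limma adjusted p 0.042). Adsl (adenylosuccinate lyase, FBgn0038467, chromosome 3R, 17018780 to 17021120) had values of 36.0, 59.2 and 66.1 RPKM (lowest, median, highest) after 1X and 23.4, 25.4 and 31.8 RPKM after 3X. Its groups lay apart, and the mean was 2.08-fold lower (-1.0 ± 0.14, SE, limma adjusted p 0.00149). Adsl overlaps Pxd on the other strand.

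CG11089, which encodes the enzyme of the last steps of the pathway, fell from 127 ± 25.6 to 63.1 ± 9.25 RPKM (limma adjusted p 0.00197), and Paics from 546 ± 56.3 to 339 ± 48.9 RPKM (limma adjusted p 0.0023). Gart fell from 97.2 ± 25.3 to 53.9 ± 9.83 RPKM (limma adjusted p 0.0133) and Prps, which makes the starting sugar phosphate, from 273 ± 18.0 to 190 ± 23.8 RPKM (limma adjusted p 0.00354). Pfas passed narrowly (-0.50 ± 0.13, SE, limma adjusted p 0.0453), and its call was lost in 10 of the 12 fits that leave out a fly, among them the fit without 1X trained replicate 1, which left 5 of the 8. Of the 2 amidotransferases of the first committed step, Prat2 was at 210 RPKM after 1X and 139 RPKM after 3X (limma adjusted p 0.168) and Prat at 5.59 and 5.93 RPKM.

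**Figure D3:**
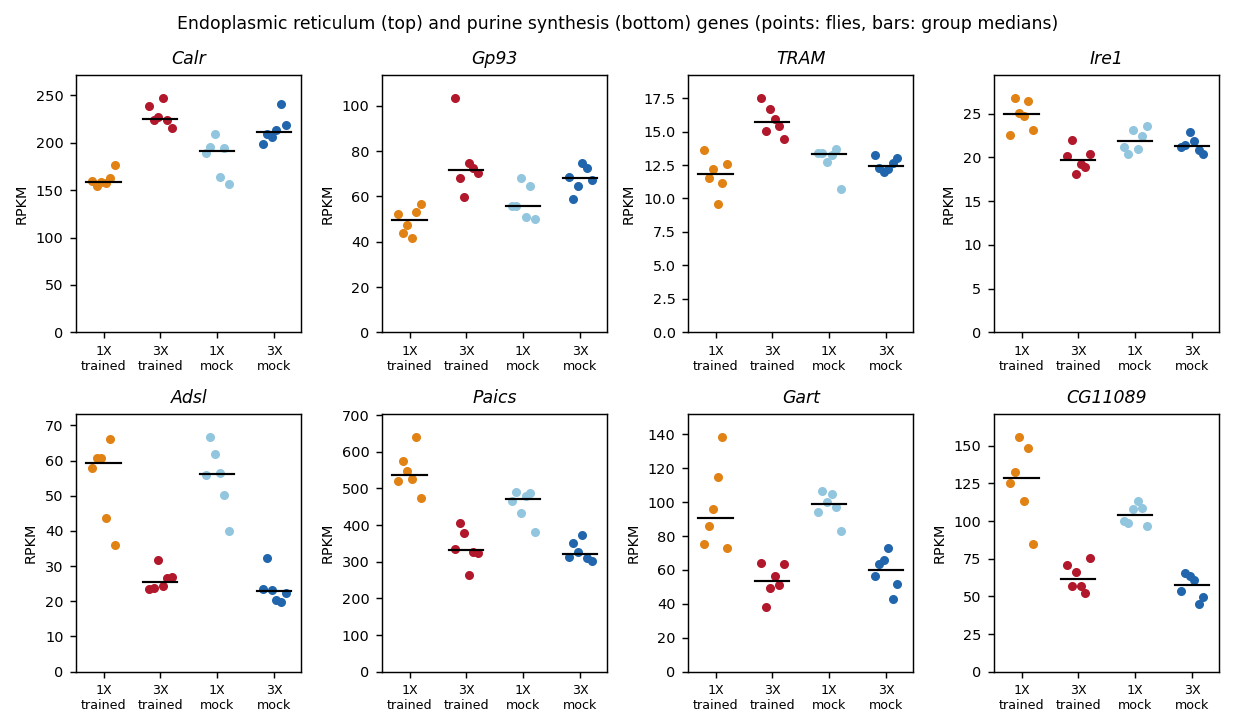
Level in RPKM (y axis, from 0) of 4 genes of the endoplasmic reticulum (top) and 4 of purine synthesis (bottom) by group, with 1 point for each fly and a bar at the group median. Calr, Gp93 and TRAM were higher and Ire1 lower in 3X than in 1X trained flies, and Adsl, Paics, Gart and CG11089 were lower after 3X in trained and in mock flies.

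In the eye, 31 phototransduction genes were tested, of which 3 were higher and 2 lower (16.1%, against 5.55% of all genes). The light-gated channel trp rose from 420 ± 24 to 572 ± 39.5 RPKM (SD, n = 6 each, limma adjusted p 0.00163) and rdgC, the phosphatase of rhodopsin, from 24.2 ± 0.798 to 33.4 ± 2.92 RPKM (limma adjusted p 0.000788). Rh6, a rhodopsin of the inner photoreceptors, rose from 647 ± 59.3 to 865 ± 59.9 RPKM (limma adjusted p 0.0072), a call that quantile normalization ended. The scaffold inaD and the eye protein kinase C, inaC, fell from 280 ± 19.0 to 219 ± 18.8 RPKM and from 448 ± 26.6 to 351 ± 17.5 RPKM. In each of these 5 genes the groups did not overlap, and mock flies moved the same way and passed the test. The list had 5 higher and 4 lower calls without 1X trained replicate 1.

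Among enzymes that modify hormones and foreign compounds, the UDP-glycosyltransferases and glutathione transferases called in the main fit were lower. Of 18 tested UDP-glycosyltransferases 5 were lower and 0 higher (Ugt35B1, Ugt35A1, Ugt302C1, Ugt36F1 and Ugt49C1), against 2.49% lower among all genes, with a median of -0.13 in trained and -0.24 in mock flies. Ugt35A1, next to Ugt35B1 on chromosome 3R, fell from 17.4 ± 1.83 to 12.2 ± 0.620 RPKM and Ugt302C1 from 66.6 ± 4.66 to 48.2 ± 5.13 RPKM. Of 31 glutathione transferases 3 were lower and 0 higher (9.68%, against 5.55% of all genes). They were GstZ2 (20.2 ± 3.00 and 13.6 ± 1.56 RPKM, limma adjusted p 0.00897), GstE8 and GstE1, of which the last 2 lost their calls in 5 and 7 of the 12 fits that leave out a fly. Of 72 cytochrome P450 genes 2 were higher and 1 lower, which is 4.17% of them, against 5.55% of all genes. The P450 genes had 4 higher and 4 lower calls without 1X trained replicate 1 (11.1%, against 10.1% of all genes), and the glutathione transferases 2 higher and 6 lower (25.8%). Cyp18a1, which inactivates the moulting hormone ecdysone, had 2.00, 2.40 and 3.69 RPKM after 1X and 3.08, 6.06 and 7.26 RPKM after 3X, with an overlap between the groups (0.90 ± 0.17, SE, limma adjusted p 0.00897). Its mock means were 5.78 ± 0.641 and 6.68 ± 1.40 RPKM. Cyp4ac2 was higher, and Cyp6a9 was lower with a call that was lost in 8 of the 12 fits that leave out a fly. In mock flies 1 glycosyltransferase was higher and 6 lower, 7 glutathione transferases were lower, and 2 P450 genes were higher and 6 lower. Among all genes 2.76% were higher and 3.78% lower there. Of the glycosyltransferases and glutathione transferases called in trained flies, all but Ugt36F1 and GstE1 also passed as lower in mock flies.

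Genes of neuronal activity and memory that passed were lower after 3X. Of 18 activity-regulated genes 2 were lower (11.1%, against 2.49% of all genes) and 0 higher, and 16 of the 18 had a negative difference. Hr38, a nuclear receptor induced by neuronal firing, had 4.98, 5.75 and 6.10 RPKM (lowest, median, highest) after 1X and 2.97, 3.55 and 5.02 RPKM after 3X (-0.50 ± 0.10, SE, limma adjusted p 0.013), so that its groups overlapped slightly. The transcription factor stripe (sr), an early growth response homologue, fell from 6.87 ± 0.626 to 4.86 ± 0.587 RPKM (limma adjusted p 0.00597). In mock flies Hr38 and sr had log2 differences of -0.35 and -0.38 and also passed (limma adjusted p 0.0256 and 0.037). There 3 genes of this list were lower and 0 higher, against 3.78% lower and 2.76% higher among all genes.

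Of 32 tested memory genes 3 were lower (9.38%, against 2.49% of all genes) and 0 higher, and 29 did not pass. Neurofibromin (Nf1), a regulator of Ras and cyclic AMP, fell from 4.44 ± 0.0987 to 3.60 ± 0.350 RPKM (limma adjusted p 0.0188) and was at 4.19 ± 0.351 and 4.21 ± 0.222 RPKM in mock flies, a difference between the differences with a limma adjusted p of 0.130. Pka-R1, the regulatory subunit of protein kinase A, and fruitless (fru), which directs male courtship, fell by 0.19 and 0.18 on the log2 scale, and lost their calls in 4 and 6 of the 12 fits that leave out a fly. In mock flies the log2 difference was -0.20 for Pka-R1 (limma adjusted p 0.0153) and -0.08 for fru (limma adjusted p 0.533).

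Antimicrobial peptide transcripts were few and uneven. Of 14 listed genes 13 were matched to values, and Drosomycin (Drs) is not among these 13, so nothing is said of it here. The filter on low values left 7, and none of the 7 passed limma's test (adjusted p 0.333 to 0.989, 0 at an unadjusted p below 0.05, 0 with voom). Metchnikowin (Mtk) ran from 1.24 through a median of 5.10 to 139 RPKM in 1X and from 1.35 through 5.55 to 15.6 RPKM in 3X trained flies. The high value belonged to 1X trained replicate 1. Diptericin B (DptB) ran from 0.187 through 1.75 to 37.4 RPKM and from 0.688 through 1.78 to 13.9 RPKM, with the highest value again in that fly. Attacin B (AttB) had 1.86, 2.26 and 11.3 RPKM after 1X and 2.74, 4.03 and 30.6 RPKM after 3X (0.96 ± 0.55, SE, limma adjusted p 0.333). AttA, AttC, Drosocin (Dro) and Defensin (Def) had log2 differences of 0.24, -0.55, -0.62 and 0.15 with standard errors of 0.69 to 0.74. The range of these peptides within a group was wider than the difference between groups, and a difference smaller than this spread was not detectable. Without 1X trained replicate 1, none of the 7 passed limma's test either (1 at an unadjusted p below 0.05). In mock flies AttC alone passed, as lower (log2 difference -1.07, limma adjusted p 0.01), against 6.54% of all genes called there. For AttC the difference between the differences did not pass (limma adjusted p 0.843). The 6 genes below the filter, DptA, AttD and the cecropins CecA1, CecA2, CecB and CecC, had medians of 0 to 2.24 RPKM in the trained groups. The Bomanin list of 14 genes also holds the Daisho genes Dso1 and Dso2. The 14 genes had no limma call and a median of -0.03 (1 at an unadjusted p below 0.05, 0 with voom).

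Several other lists had medians near 0 in trained flies. No gene passed limma's test among 80 ribosomal protein genes (median 0.04), 71 genes of the respiratory chain (0.06), 34 of the proteasome (-0.03), 28 of insulin signalling and fasting (0.05), 14 of lipid synthesis (-0.11) and 34 neuropeptide genes (0.06). At an unadjusted p below 0.05 there were 2, 11, 1, 6, 2 and 2 genes in these lists in the same order, against 2277 of all 10261 genes tested. Voom called 1 ribosomal protein gene and 0 in the others. Differences of single genes ran from -0.65 to 1.30 in the insulin and fasting list and from -0.74 to 0.16 in lipid synthesis. In mock flies 3 insulin and fasting genes were higher and 2 lower, and 6 lipid synthesis genes were lower. There the respiratory chain list had 1 higher and 6 lower genes and the neuropeptide list 1 higher gene. Among all genes 2.76% were higher and 3.78% lower in mock flies. The mock medians of these lists, in the order above, were -0.08, -0.09, -0.03, 0.01, -0.29 and 0.02. Without 1X trained replicate 1, calls in trained flies appeared in the ribosomal protein (1), proteasome (2), insulin (1) and lipid synthesis (1) lists. Of 44 ribosome biogenesis genes 1 was higher (2.27%, against 3.05% of all genes), Nop17l (14.4 ± 0.582 and 20.5 ± 4.05 RPKM), and 40 had a positive difference. Leaving out 1X trained replicate 1 gave 4 higher genes in this list (9.09%, against 6.47% of all genes). The call of Nop17l was lost in 3 of the 12 fits that leave out a fly. Single calls in the odorant-binding protein list (Obp99c, higher), the transsulfuration list (AhcyL1, higher) and the hormone list (gce, a juvenile hormone receptor, lower, beside Cyp18a1) were lost in 11, 2 and 9 of those fits.

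**Figure D4:**
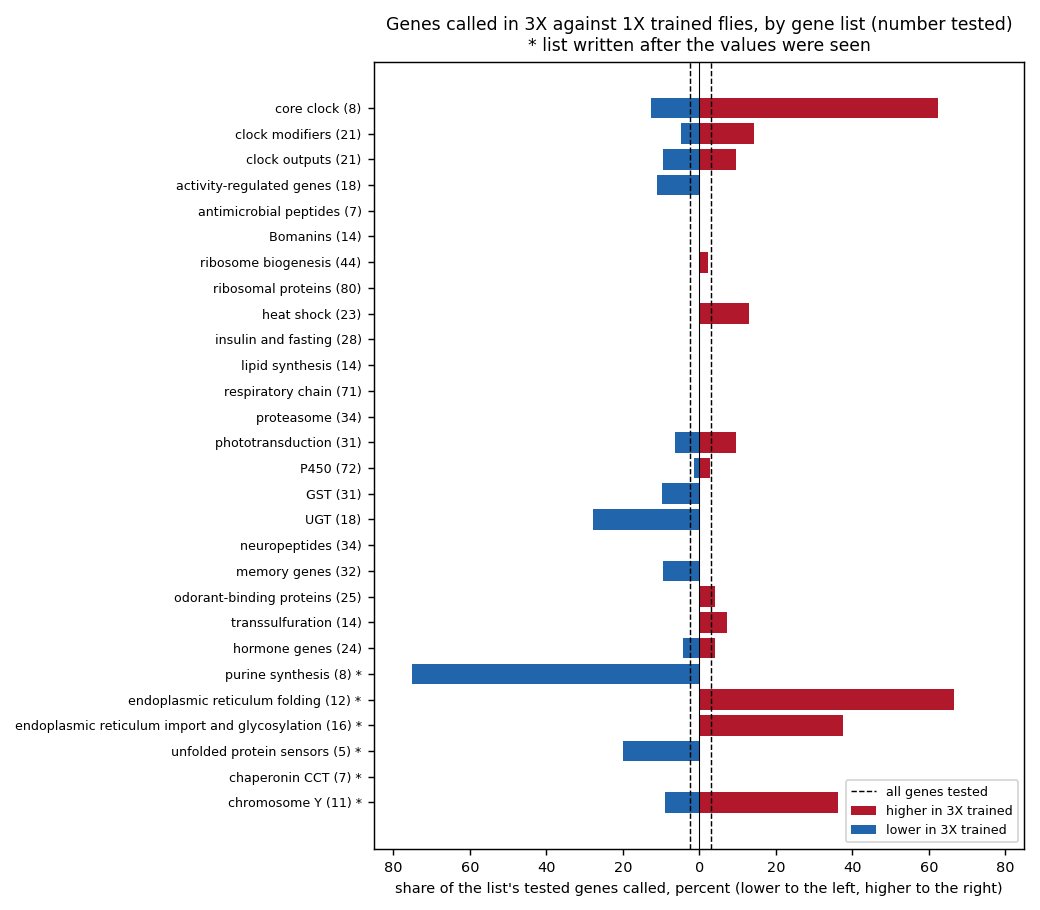
Share of each list's tested genes that were called higher (red, to the right) or lower (blue, to the left) in 3X than in 1X trained flies, in percent, with the number tested in brackets and dashed lines at 3.05% higher and 2.49% lower for all 10261 genes. The core clock, purine synthesis and endoplasmic reticulum lists stand far outside the dashed lines, and lists with an asterisk were written after the values had been seen.

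A group of genes with very large differences did not behave as separate genes. The transcripts labelled kl-5 (a dynein heavy chain, chromosome Y, 22250 to 137486), ORY (chromosome Y, 3561745 to 3618339), Ppr-Y (chromosome Y, 1636574 to 1884846) and CCY (chromosome Y, 3649996 to 3666928) are assigned to genes of the Y chromosome, which are known for expression in the testis. Pzl lies on chromosome 3R (2554162 to 3263582). In 1X trained flies kl-5 had a lowest, median and highest value of 17.3, 43.5 and 64.4 RPKM and in 3X trained flies of 61.2, 235 and 597 RPKM. Its log2 difference was 2.47 ± 0.51 (SE, limma adjusted p 0.0152), with a small overlap of the groups, and those of ORY, Ppr-Y, Pzl and CCY were 2.44, 2.42, 2.41 and 2.31. In all 24 flies the ratio of ORY to kl-5 stayed between 0.900 and 0.995, that of Ppr-Y between 12.2 and 13.9, that of Pzl between 3.52 and 4.10 and that of CCY between 0.208 and 0.278. The log2 ratios to kl-5 had an SD of 0.03 to 0.10 over the flies, against a median of 1.57 for the 12072 genes above 0 in every fly, and no other gene was under 0.25. The 5 labels therefore carry 1 measurement, and their reads may come from a shared sequence. The sequence was not analysed here. In mock flies the log2 difference of kl-5 was 1.71 (limma adjusted p 0.0558), and 1.34 (limma adjusted p 0.0786) without 3X mock replicate 6. Leaving out any 1 of the 3X mock flies gave limma adjusted p from 0.0331 to 0.122, the lowest without replicate 2. Testis markers summed to 27.4 to 31.3 RPKM in the trained flies and 29.2 to 35.6 RPKM in the 1X mock flies. In 3X mock flies they summed to 25.9 to 34.1 RPKM, apart from 144 RPKM in replicate 6, the mock fly with the highest kl-5 (265 RPKM). The part of this fly in the mock difference beyond these values was not tested. Other Y-linked genes tested, WDY and FDY among them, had differences of -0.09 to 0.08, apart from CR40801, which fell from 25.6 ± 3.35 to 17.7 ± 2.60 RPKM.

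Part of the calls were shared with flies kept on the same schedules without a female. In mock flies 671 of the 10261 genes passed (6.54%), 283 higher (2.76%) and 388 lower (3.78%) after 3X, and groups did not overlap in 4.38%. The number was 515 without 3X mock replicate 6. The trained and the mock comparison share no fly. Of the 569 genes called in trained flies 186 were called in mock flies, which is 32.7% of the trained and 27.7% of the mock calls, and 185 of the 186 had the same direction. Whether or not they were called in mock flies, 504 of the 569 had a difference of the same sign there. Across all genes tested the differences in trained and in mock flies had a Spearman rho of 0.38 and a Pearson r of 0.53. This describes genes that are not independent of each other. Of the 383 genes called in trained and not in mock flies, 7 passed the test of the difference between the differences.

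That test called 18 genes (0.175%), 10 with a more positive (0.0975%) and 8 with a more negative difference (0.078%) between 3X and 1X in trained than in mock flies, and 1209 genes had an unadjusted p below 0.05. It called 108 genes without 1X trained replicate 1, 105 without 3X trained replicate 2, 3 without 1X trained replicate 2 and 5 without 3X mock replicate 6. All 18 were among the calls in the first 2 of these fits. In 15 of the 18 genes the differences in trained and mock flies had opposite signs. The exception among the 186 shared calls was suppressor of rudimentary, su(r) (FBgn0086450, chromosome X, 9196808 to 9201820), which encodes the enzyme that starts the breakdown of uracil. Its lowest, median and highest values were 24.6, 29.2 and 33.4 RPKM in 1X and 12.3, 16.6 and 22.8 RPKM in 3X trained flies. In 1X and 3X mock flies the values were 9.65, 12.0 and 14.2 and 15.2, 15.5 and 17.4 RPKM. It thus fell in trained flies (-0.77 ± 0.13, SE) and rose in mock flies (0.39 ± 0.08), with a limma adjusted p of 0.0014 for the difference, and the 1X trained flies were the highest of the 4 groups.

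The gene slow had 8.67 ± 0.455 and 7.61 ± 0.742 RPKM in 1X and 3X trained flies and 6.14 ± 0.407 and 8.53 ± 0.567 RPKM in mock flies (-0.59 ± 0.08, SE, limma adjusted p 0.00105 for the difference). FBgn0025687, which had no symbol or position in the reference tables used, had 7.75 ± 2.14, 5.13 ± 1.47, 2.54 ± 0.896 and 6.36 ± 1.14 RPKM in the same order (limma adjusted p 0.0111). CG3829, which overlaps emp on the other strand, followed the same order of groups (-0.58 ± 0.11, limma adjusted p 0.0338). In the opposite direction, sll, which carries sulfate donor into the Golgi, rose from 14.4 ± 0.929 to 18.0 ± 1.58 RPKM in trained flies and was at 16.9 ± 0.989 and 15.0 ± 1.38 RPKM in mock flies (0.47 ± 0.08, limma adjusted p 0.0215). Spermidine synthase (SpdS) and asRNA:CR45053, which lies inside it on the other strand and cannot be told apart from it, had differences of 0.57 and 0.63 (limma adjusted p 0.0215 each). The mitochondrial dehydrogenase scu was at 166 ± 9.63 and 175 ± 7.53 RPKM in trained and at 196 ± 10.4 and 157 ± 13.4 RPKM in mock flies (0.40 ± 0.08, limma adjusted p 0.0338). The calls of scu and CG3829 were lost in 8 and 7 of the 24 fits that leave out a fly, and those of sll, SpdS and asRNA:CR45053 without 1X trained replicate 2 (limma adjusted p 0.0554 each), with sll also lost without 3X mock replicate 6.

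**Figure D5:**
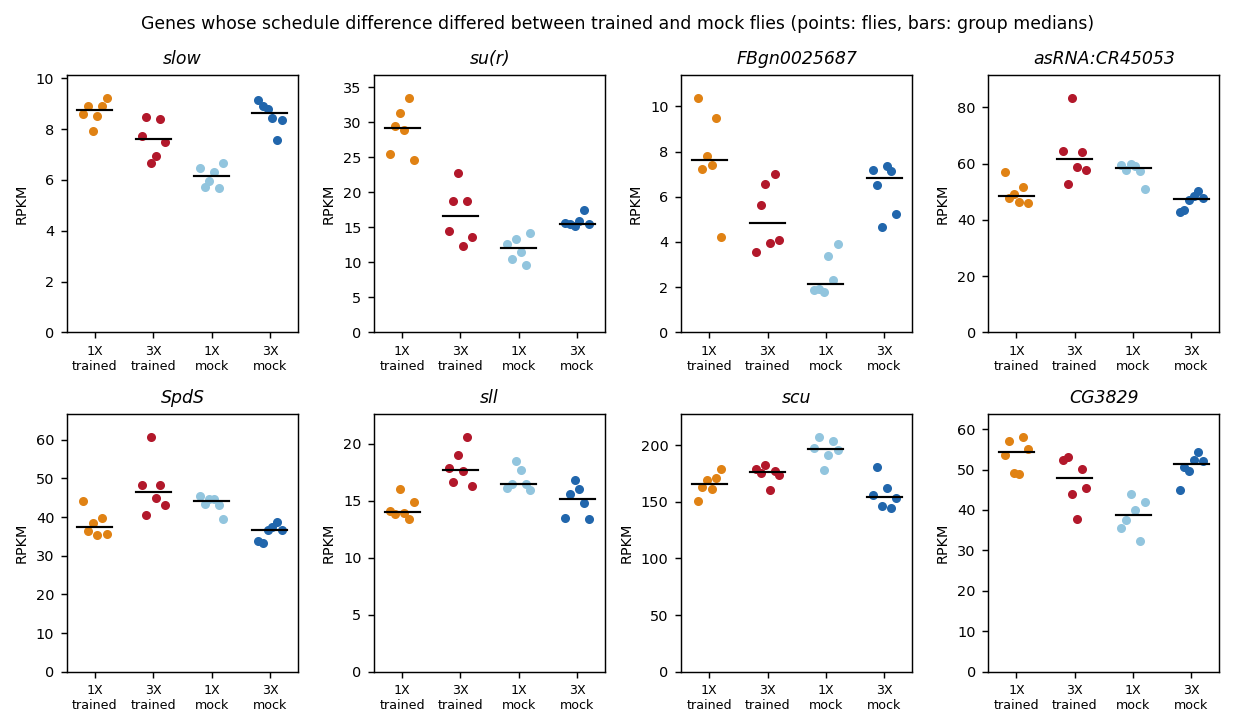
Level in RPKM (y axis, from 0) of the 8 genes with the smallest p for a difference between the trained and the mock schedule difference, by group, with 1 point for each fly and a bar at the group median. In slow, su(r), FBgn0025687 and CG3829 the 1X trained flies lie above the 1X mock flies, and in asRNA:CR45053, SpdS, sll and scu they lie mostly below them.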

How the data were processed

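Heads of single male flies were sequenced as non-stranded SMART-Seq v4 libraries, 6 flies in each of 4 groups taken from the sample labels. The authors deposited RPKM values for 17559 genes. Per the labels and the study's methods, reads were aligned to dm6 with TopHat2 2.0.13 and RPKM were made with edgeR 3.18.1, and another section of the methods names an older TopHat and dm3. Whole reads could be recovered for all 16992 genes above 0 (tolerance 0.02 reads), which gave the library totals. These totals cover counting error only. Whatever scaling the authors applied is kept in the values: their library size was 0.950 to 1.12 times the recovered total in the trained flies.

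Genes that reached 1 RPKM in 6 or more of the 12 trained flies were tested on log2(RPKM + 1) with limma 3.58.1 in R 4.3.3 (lmFit and eBayes with trend, two-sided, Benjamini-Hochberg over all genes tested, called below 0.05). This scale understates changes of low genes. The trained and the mock comparison were fitted to 12 flies each and their difference to all 24. The fits were tested on simulated data. Positions come from the Ensembl 115 annotation of dm6. The members and gene lists were chosen with earlier results of these data known, and 6 of the 28 lists were written after the values were seen here. Named genes were the 8 higher and 8 lower genes with the smallest p, the 6 higher and 6 lower with the largest difference among those without overlap, the 8 of the interaction with the smallest p, the core clock and antimicrobial peptide genes, and up to 3 per direction in each other list. Other genes named were chosen after their values were seen. Alternatives were another pseudocount (0.1), no filter or one of 5 RPKM, median-ratio and quantile scaling, sample weights, no trend, a replicate block, voom on the recovered reads, all 24 flies in one fit, and each fly left out in turn. Tables were made with Python 3.11.15, numpy 2.4.6 and pandas 2.3.3.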

Additional observations from a re-analysis of the deposited data

Results flagged for a closer look

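Within each trained group, the highest or lowest fly of each named gene was set against the range of its group of 6. Of 188 groups examined 14 stood out by this measure, where about 1 in 20 would by chance. In 6 of the 14 the fly was 1X trained replicate 1: AttB (11.3 RPKM, next fly 2.81), AttC (141 and 47.9), DptB (37.4 and 6.32), Mtk (139 and 30.4), Sec61alpha (80.6 and 69.9), and at the low end Ugt35B1 (91.7 and 126). In 1X trained flies, per stood out at 5.43 RPKM in replicate 2, CG8665 at 158 RPKM in replicate 6, and Cyp18a1 at 3.69 RPKM in replicate 4. In 3X trained flies, AttC was at 46.9 RPKM in replicate 4, Gp93 at 103 RPKM, Manf at 56.4 RPKM and GCS2beta at 22.3 RPKM in replicate 1, and Obp99c at 2080 RPKM in replicate 6.

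The difference between 3X and 1X was itself different in trained and mock flies for 8 named genes by limma's test of the interaction. These 8 were named for having the smallest p in that test, so their number follows from the naming rule. The log2 values, trained minus mock, were -0.59 for slow, -1.16 for su(r), -1.58 for FBgn0025687, -0.58 for CG3829, 0.63 for asRNA:CR45053, 0.57 for SpdS, 0.47 for sll and 0.40 for scu.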

How the results depend on the processing

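Of the 569 genes called in trained flies, 299 were called in each of the 12 fits that leave out a fly, and none changed sign under any alternative run. Leaving out a fly gave 353 to 1038 calls in trained flies (1038 without 1X replicate 1, 353 without 1X replicate 3, 377 without 1X replicate 4, 379 without 3X replicate 4), 473 to 599 in mock flies and 3 to 108 for the difference between them. That last count was 108 without 1X trained replicate 1, 105 without 3X trained replicate 2 and 35 without 1X mock replicate 6. It fell to 11 or fewer without 1X trained replicates 2 (3 genes), 4 and 5, 3X trained replicates 1 and 5, 1X mock replicates 1, 3, 4 and 5, or 3X mock replicates 2, 3 and 6. Sample weights gave 1145 calls in trained flies and 121 for the difference, and a fit of all 24 flies gave 1183 in trained flies. Without a filter 9 genes passed for the difference. Apart from the replicate block below, the other alternatives, voom included, moved these 3 counts by less than 1.5 times. Replicate numbers were not taken as pairs: same-numbered trained flies had correlated deviations of r -0.14 to 0.15, over 0.1 in 3 of 6 pairs (1 of 6 in mock flies), and 2 of 12 trained flies were closest to their own number. With the replicate block 335 genes were called in trained flies, 573 in mock flies and 9 for the difference. Signs turned only in genes that did not pass: cyc (-0.00932 with median-ratio scaling, -0.0219 with quantile normalization, -0.00467 with voom, and -0.0219 to 0.0377 leaving out a fly), AttA (-0.0381 with voom, -0.23 to 0.55 leaving out a fly), AttC (0.0495 with sample weights), DptB (-0.35 to 0.68) and Def (-0.29 to 0.57), the last 2 leaving out a fly.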
